A study of Mus musculus with 12 samples.

Results

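Control segment 1 and control segment 2, neighbouring stretches of the unligated mouse epididymis, were compared by RNA sequencing. Each segment was represented by 2 libraries, 1 from sequencing batch 3017 and 1 from batch 3097, so 4 of the 12 libraries of the series made up the comparison, and the libraries of a batch formed a pair. The mice were wild type (WT), the control tissue had no ligation, and each library was a pool from 2 mice; the sources used here give neither strain nor age. The series covers the first 3 segments of the proximal duct. The other 8 libraries were control segment 3 and segments 1 to 3 of WT epididymides whose efferent ducts had been tied off with a suture before the caput (efferent duct ligation); they entered the shared estimate of the spread, and only the ligated segments 1 and 2 and a few values of control segment 3 are given below, for reference. Nothing in the labels says whether the segments of a batch came from the same pair of mice, so p-values measure the spread between pools.

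The epididymis is one long coiled tubule that sperm cross after leaving the testis, and it mixes its own secretions into the fluid around them. Its most proximal part, the initial segment, has a tall epithelium, a dense capillary bed and active ERK signalling, and it depends on factors that arrive in the lumen from the testis (lumicrine factors), acting in part through the receptor tyrosine kinase ROS1. The segments that follow secrete other sets of lipocalins, defensins, protease inhibitors and enzymes. In a tissue of this kind, fewer cells of a type and less RNA per cell cannot be told apart.

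Levels are CPM, gene counts scaled to library size with TMM factors, given in the order batch 3017, batch 3097. A log2 fold change is segment 1 over segment 2, so a positive value means a higher level in segment 1; it is given with its standard error (SE). A gene was called when edgeR's quasi-likelihood test gave a Benjamini-Hochberg adjusted p under 0.05 over all 19213 genes tested. The segment 1 libraries held 42313728 and 36349233 counts and those of segment 2 held 30485275 and 32254123; 3 counts corresponded to between 0.0751 and 0.103 CPM in these 4 libraries. The segment 2 pair was the least alike of the 6 groups: 810 of 14158 genes at 1 CPM or more were over 2-fold apart between its libraries, against 129 of 13766 in segment 1. Krt8, a keratin of simple epithelia, was detected in both segments (488 and 473 CPM in segment 1 and 379.8 and 451 CPM in segment 2) and was not called. Neutrophil and adipocyte markers had no member above the low-count filter, and the marker lists of other cell types are given below.

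A large share of the transcriptome differed between the 2 segments. Of 19213 genes, 8294 were called (43.2%): 4056 were higher in segment 1 (21.1%) and 4238 were higher in segment 2 (22.1%). Differences of at least 2-fold were called in 3935 genes (20.5%), 1433 of them higher in segment 1 (7.46%) and 2502 higher in segment 2 (13%). At 8-fold or more, 383 genes were higher in segment 1 (1.99%) and 706 in segment 2 (3.67%). The libraries of the 2 segments did not overlap in 13167 genes (68.5%). The direction was the same within batch 3017 and within batch 3097 for 8292 of the called genes and opposite for 2. The calls came from these same libraries with batch as a term, so this agreement is not a separate replication. The count was 4749 without the segment 1 library of batch 3017 and 5046 when only the 4 libraries compared were fitted.

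**Figure D1:**
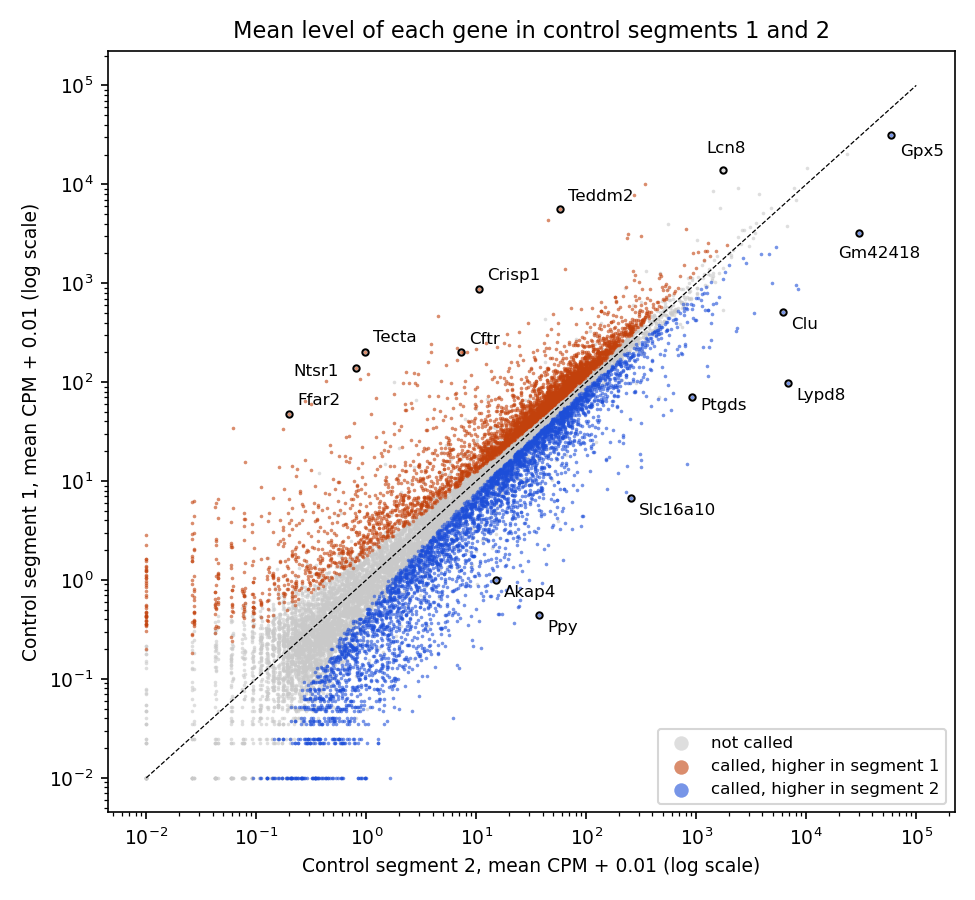
Mean level of each tested gene in control segment 1 (vertical axis) against control segment 2 (horizontal axis), in CPM + 0.01 on log scales, 2 libraries a segment. Orange and blue points are the 4056 and 4238 genes called higher in segment 1 and segment 2, grey points were not called, and the dashed line marks equal levels. Ffar2, Tecta and Teddm2 lie far above the line, Ppy and Lypd8 far below it.

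Called genes were ranked by log2 fold change where the higher segment averaged 10 CPM or more, leaving out unnamed loci. The 15 at the top were all at least 64-fold higher in segment 1, and their median level in segment 2 was 0.799 CPM. They included receptors, an actin-based motor, matrix proteins and secreted proteins, with a defensin among them. Ffar2, which senses short-chain fatty acids at the cell surface, measured 55.6 and 40.3 CPM in the segment 1 libraries and 0.31 and 0.0644 CPM in those of segment 2. Ffar2 was higher in segment 1 (log2 fold change 8.01 ± 0.40 SE, adjusted p = 1.98e-05). Ntsr1, the neurotensin receptor, stood at 160.3 and 118 CPM in segment 1 against 1.31 and 0.29 CPM in segment 2. Ntsr1 was higher in segment 1 (log2 fold change 7.51 ± 0.48 SE, adjusted p = 0.000465). The lower segment 1 library exceeded the higher segment 2 library 130.3-fold for Ffar2 and 90.2-fold for Ntsr1. Tecta, which encodes the inner ear matrix protein alpha-tectorin, was at 203 and 198 CPM in segment 1 and 1.20 and 0.708 CPM in segment 2. Tecta was higher in segment 1 (log2 fold change 7.71 ± 0.39 SE, adjusted p = 3.33e-05). Myo16, an unconventional myosin, had 73.9 and 53.6 CPM in segment 1 and 0.379 and 0.161 CPM in segment 2 (log2 fold change 7.88 ± 0.53 SE, adjusted p = 6.05e-05). Zap70, a kinase known from T cell receptor signalling, measured 156 and 86.2 CPM in the segment 1 libraries and 1.27 and 0.773 CPM in those of segment 2. Zap70 was higher in segment 1 (log2 fold change 6.86 ± 0.43 SE, adjusted p = 6.89e-05). Other genes of T cell signalling had low levels in both segments. Cd3e stood at 2.18 and 1.58 CPM in segment 1 against 2.75 and 1.16 CPM in segment 2. Cd3e was not called (log2 fold change 0.01 ± 0.31 SE, adjusted p = 0.977). Lck was at 0.926 and 1.04 CPM in segment 1 and 0.964 and 1.19 CPM in segment 2. Lck was not called (log2 fold change -0.12 ± 0.29 SE, adjusted p = 0.763). Per kilobase of exon, Zap70 stood at 40.5 CPM in segment 1 and 0.342 in segment 2.

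Several of these genes were abundant in segment 1. Defb48, a beta-defensin of the duct, measured 4146 and 4467 CPM in the segment 1 libraries and 68.9 and 20.3 CPM in those of segment 2. Defb48 was higher in segment 1 (log2 fold change 6.65 ± 0.73 SE, adjusted p = 0.000954). Teddm2, a transmembrane protein gene of the epididymis, stood at 5971 and 5194 CPM in segment 1 against 68.003 and 46.3 CPM in segment 2. Teddm2 was higher in segment 1 (log2 fold change 6.61 ± 0.30 SE, adjusted p = 9.06e-06). Crisp1, a secreted cysteine-rich protein that binds sperm, was at 910.3 and 845 CPM in segment 1 and 9.22 and 12.04 CPM in segment 2. Crisp1 was higher in segment 1 (log2 fold change 6.36 ± 0.90 SE, adjusted p = 0.00294). The groups did not overlap for any of the 3, which was also so for 68.5% of all genes. In control segment 3, Crisp1 was at 5.85 and 23.5 CPM. The other members of the set were Nxph4 (7.96), Dpys (7.80), Adamtsl3 (7.62), Ttyh1 (6.95), Krt23 (6.78), C1ql4 (6.43) and Spo11 (6.16), each as a log2 fold change.

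The 15 genes at the other end of the same ranking were higher in segment 2 by log2 fold changes of 4.90 to 6.47, with transporters and secreted or membrane-anchored proteins among them. Ppy, which encodes pancreatic polypeptide, measured 0.025 and 0.834 CPM in the segment 1 libraries and 18.3 and 55.4 CPM in those of segment 2. Ppy was higher in segment 2 (log2 fold change -6.47 ± 0.97 SE, adjusted p = 0.00363). Lypd8, a GPI-anchored protein of the Ly6 family, stood at 4.01 and 191 CPM in segment 1 against 3320 and 10315 CPM in segment 2. Lypd8 was higher in segment 2 (log2 fold change -6.36 ± 1.69 SE, adjusted p = 0.0288). The segments did not overlap for either gene, which was also so for 68.5% of all genes. The segment 1 libraries of Lypd8 were 47.6-fold apart, and its call was lost without the segment 2 library of batch 3017 or of batch 3097. Slc16a10, a transporter of aromatic amino acids, was at 3.30 and 10.2 CPM in segment 1 and 85.97 and 423 CPM in segment 2. Slc16a10 was higher in segment 2 (log2 fold change -5.16 ± 0.71 SE, adjusted p = 0.00249). Slc34a2, a sodium-phosphate cotransporter, measured 0.325 and 0.715 CPM in the segment 1 libraries and 8.40 and 39.6 CPM in those of segment 2. Slc34a2 was higher in segment 2 (log2 fold change -5.49 ± 0.93 SE, adjusted p = 0.0057). Upk1a, a uroplakin, stood at 0.501 and 2.65 CPM in segment 1 against 21.1 and 101 CPM in segment 2. Upk1a was higher in segment 2 (log2 fold change -5.21 ± 0.75 SE, adjusted p = 0.00313). Hhatl, an acyltransferase-like gene, was at 0.2 and 0.507 CPM in segment 1 and 8.12 and 36.02 CPM in segment 2. Hhatl was higher in segment 2 (log2 fold change -5.94 ± 0.98 SE, adjusted p = 0.00527). In these 4 genes the segment 2 library of batch 3097 was the highest of the 4 libraries.

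The remaining members were Sema5b (-5.70), Sez6l (-5.47), Tmem238l (-5.30), the small Cajal body RNA gene Scarna2 (-5.24), the defensin Defb15 (-5.22), Gpa33 (-5.09), Lrcol1 (-4.995), Stxbp6 (-4.97) and Rarres1 (-4.90), as log2 fold changes. Defb15 measured 0.476 and 1.37 CPM in the segment 1 libraries and 4.65 and 74.7 CPM in those of segment 2, and its call was lost without either segment 1 library or the segment 2 library of batch 3097 (adjusted p between 0.145 and 0.158). The calls of Sema5b (adjusted p = 0.0959), Sez6l (0.0502) and Slc34a2 (0.0508) were lost without the segment 1 library of batch 3017, and that of Sema5b also without the one of batch 3097 (0.0883). All 15 genes were higher in batch 3097 than in batch 3017 in both segments, with a median log2 difference between batches of -0.94 in segment 1 and -1.77 in segment 2 (batch 3017 over 3097). Median levels of the 15 genes were 0.617 CPM in segment 1, 24.8 in segment 2 and 50.2 in control segment 3, while those of the 15 genes highest in segment 1 were 108.1, 0.799 and 0.43 CPM.

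**Figure D2:**
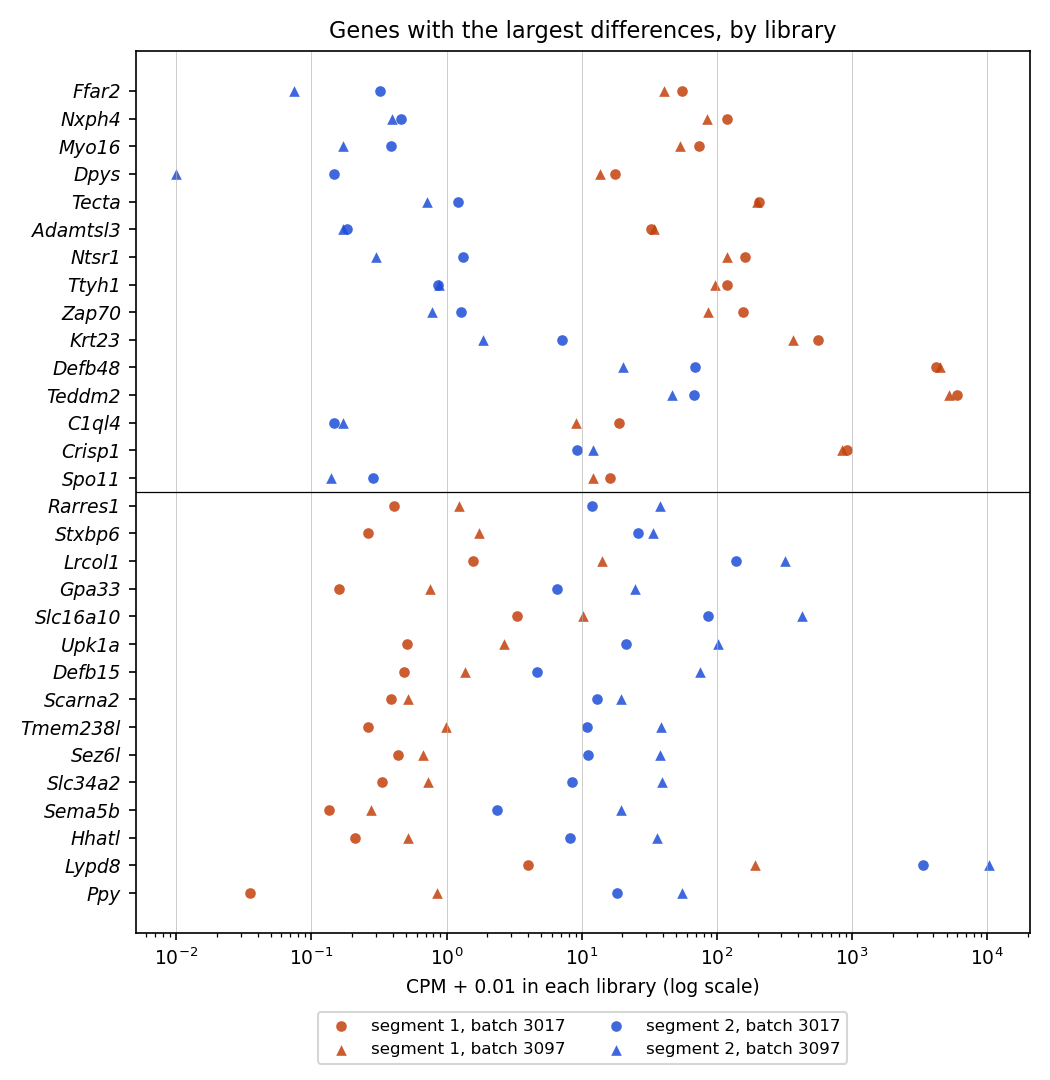
CPM + 0.01 on a log scale in each of the 4 libraries, for the 15 genes of at least 10 CPM with the highest log2 fold change (above the line) and the 15 with the lowest (below it). Orange marks segment 1, blue segment 2, circles batch 3017 and triangles batch 3097. No gene's segments overlap, which was also so for 68.5% of all genes. Below the line the triangles lie to the right of the circles in both segments.

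Sequence upstream of these genes was examined for 2 motifs tied to signals of the proximal duct: CCGGAA, a core bound by ETS factors such as ETV4 and ETV5, and TGTTCT, the hexamer of steroid response elements, on both strands. The 250 bases before the annotated start are shown for the first 3 genes of each direction that have an entry in RefSeq's GRCm38.p6 promoter table, in the direction of transcription, with any match in capitals. The first 3 are the genes higher in segment 1 and the last 3 those higher in segment 2.
Ffar2 (chr7:30823776-30824025, minus strand): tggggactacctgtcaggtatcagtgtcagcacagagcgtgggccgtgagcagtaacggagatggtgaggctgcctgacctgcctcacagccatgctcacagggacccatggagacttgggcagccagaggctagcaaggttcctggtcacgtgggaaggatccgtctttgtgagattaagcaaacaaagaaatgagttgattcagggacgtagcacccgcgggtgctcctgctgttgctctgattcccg
Myo16 (chr8:10153661-10153910, plus strand): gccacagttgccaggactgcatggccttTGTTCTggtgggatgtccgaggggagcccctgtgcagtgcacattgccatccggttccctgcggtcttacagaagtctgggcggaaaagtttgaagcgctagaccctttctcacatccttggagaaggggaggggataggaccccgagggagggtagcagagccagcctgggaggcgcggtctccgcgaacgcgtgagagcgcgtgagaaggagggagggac
Tecta (chr9:42399948-42400197, minus strand): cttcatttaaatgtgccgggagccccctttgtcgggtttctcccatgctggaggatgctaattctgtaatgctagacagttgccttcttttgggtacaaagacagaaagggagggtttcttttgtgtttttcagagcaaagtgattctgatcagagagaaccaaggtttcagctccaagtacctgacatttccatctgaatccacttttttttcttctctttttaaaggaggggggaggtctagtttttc
Ppy (chr11:102101320-102101569, minus strand): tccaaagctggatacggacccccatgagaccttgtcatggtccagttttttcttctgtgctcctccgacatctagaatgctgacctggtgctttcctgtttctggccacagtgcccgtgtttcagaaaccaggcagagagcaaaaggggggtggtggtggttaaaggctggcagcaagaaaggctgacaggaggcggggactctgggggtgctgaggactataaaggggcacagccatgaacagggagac
Lypd8 (chr11:58378782-58379031, plus strand): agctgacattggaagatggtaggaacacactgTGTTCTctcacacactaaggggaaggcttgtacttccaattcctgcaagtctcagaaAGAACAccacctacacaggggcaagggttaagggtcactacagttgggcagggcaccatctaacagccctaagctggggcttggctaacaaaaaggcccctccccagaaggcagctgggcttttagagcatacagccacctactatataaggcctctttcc
Hhatl (chr9:121792508-121792757, minus strand): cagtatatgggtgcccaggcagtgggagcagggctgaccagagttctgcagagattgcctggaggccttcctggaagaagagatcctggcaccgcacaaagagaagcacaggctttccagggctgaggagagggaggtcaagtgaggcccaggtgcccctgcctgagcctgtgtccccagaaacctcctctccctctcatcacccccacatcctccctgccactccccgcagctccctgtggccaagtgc
None of the 6 held CCGGAA. The hexamer TGTTCT was found once upstream of Myo16, starting 222 bases before the annotated start, and at 2 places upstream of Lypd8, 218 and 161 bases before it, the second on the opposite strand. Upstream of Ffar2, Tecta, Ppy and Hhatl neither motif's letters occurred in this window.

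Across genes, CCGGAA was in 21 of 338 such windows of the genes called at least 8-fold higher in segment 1 (6.21%) and in 29 of 555 of those at least 8-fold higher in segment 2 (5.23%). The share was 18.9% of 16410 windows of all genes tested and 12% of the whole table. TGTTCT was in 12.7% of the segment 1 windows, 14.8% of the segment 2 windows and 11.6% of those of all tested genes. The full palindrome of the steroid response element, which holds that hexamer on both strands, was in 1 window of the tested genes and in none of the 2 sets. These counts cover 247 of 383 and 457 of 706 genes with an entry, and a match is a description of letters and not of a bound site.

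Genes known to mark the initial segment or to answer lumicrine signals were called in both directions. Of 22 members tested, 7 were called higher in segment 1 and 4 higher in segment 2 (50% called against 43.2% of all genes), and the median log2 fold change was 1.69 against -0.04 for all genes. Ovch2, an ovochymase secreted into the lumen and needed for sperm to mature, stood at 3113 and 3169 CPM in segment 1 against 349 and 132 CPM in segment 2. Ovch2 was higher in segment 1 (log2 fold change 3.79 ± 0.36 SE, adjusted p = 0.000293). Ros1, the kinase receptor itself, was at 698 and 722 CPM in segment 1 and 394 and 215 CPM in segment 2. Ros1 was higher in segment 1 (log2 fold change 1.24 ± 0.24 SE, adjusted p = 0.00495). Adam28, a membrane metalloprotease, measured 8193 and 7499 CPM in the segment 1 libraries and 489.5 and 59.1 CPM in those of segment 2. Adam28 was higher in segment 1 (log2 fold change 4.83 ± 1.25 SE, adjusted p = 0.0265). Etv4, an ETS factor downstream of ERK, stood at 234 and 165 CPM in segment 1 against 6.26 and 1.42 CPM in segment 2. Etv4 was higher in segment 1 (log2 fold change 5.79 ± 0.62 SE, adjusted p = 0.000881). Srd5a1, a steroid 5-alpha reductase, was at 63.6 and 54.5 CPM in segment 1 and 32.2 and 10.6 CPM in segment 2. Srd5a1 was higher in segment 1 (log2 fold change 1.59 ± 0.40 SE, adjusted p = 0.0179). The segments did not overlap for any of these 5 genes, which was also so for 68.5% of all genes. The call of Adam28 was lost without the segment 1 library of batch 3017 or 3097, and that of Srd5a1 without the segment 1 library of batch 3097. The 4 members called higher in segment 2 were Ggt1, a gamma-glutamyl transferase (-3.14), the sperm-binding defensin-like genes Spag11a (-3.07) and Spag11b (-1.18), and Penk, proenkephalin (-1.32).

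Several of the most abundant transcripts of segment 1 were not called, and their 2 segment 2 libraries lay far apart. Their segments did not overlap, which was also so for 68.5% of all genes. Lcn8, an epididymal lipocalin, measured 13694 and 14229 CPM in the segment 1 libraries and 3320 and 209.9 CPM in those of segment 2. Lcn8 was not called (log2 fold change 3.24 ± 1.11 SE, adjusted p = 0.0616). Cst8, the cystatin CRES, stood at 3750 and 4130 CPM in segment 1 against 1008 and 107 CPM in segment 2. Cst8 was not called (log2 fold change 2.97 ± 0.98 SE, adjusted p = 0.0562). Rnase10, a catalytically inactive member of the RNase A family, was at 8717 and 9639 CPM in segment 1 and 3865 and 942 CPM in segment 2. Rnase10 was not called (log2 fold change 2.17 ± 0.76 SE, adjusted p = 0.0625). Segment 1 exceeded both segment 2 libraries in all 3, and the segment 2 library of batch 3017 held 4.10 to 15.8 times the level of the one of batch 3097. Lcn9 measured 8228 and 8939 CPM in the segment 1 libraries and 2566 and 262 CPM in those of segment 2. Lcn9 was not called (log2 fold change 2.89 ± 0.93 SE, adjusted p = 0.0502). Etv5, the partner of Etv4, stood at 966 and 810.2 CPM in segment 1 against 379.9 and 68.7 CPM in segment 2. Etv5 was not called (log2 fold change 2.28 ± 0.80 SE, adjusted p = 0.0674). The log2 fold change of Lcn8 was 6.06 without the segment 2 library of batch 3017 and 2.10 without that of batch 3097. Each of these 2 fits left segment 2 with 1 library, so the gap between its libraries no longer entered the spread. Calls from these 2 fits are therefore not given for Lcn8, Lcn9, Cst8, Etv5 and Rnase10. DESeq2's Wald test called all 5 (adjusted p from 0.00359 to 0.0282), as did a stricter low-count filter in edgeR (0.0315 to 0.0454). Without the batch block, edgeR called Lcn9 (adjusted p = 0.0492) and Cst8 (0.0391).

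The summed level of the 22 genes was 55570 and 58112 CPM in segment 1 and 19373 and 7794 CPM in segment 2. Within segment 2, 18 of the 22 were higher in batch 3017 than in batch 3097, by a median of 1.3 on the log2 scale, and within segment 1, 8 of 22 were (-0.08). By DESeq2 or with the stricter filter, 12 members of the list were called higher in segment 1. With 1 library left out this count moved both ways: it rose without either segment 2 library and fell without either segment 1 library. The comparison between the segment 2 libraries was made after their values were seen.

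**Figure D3:**
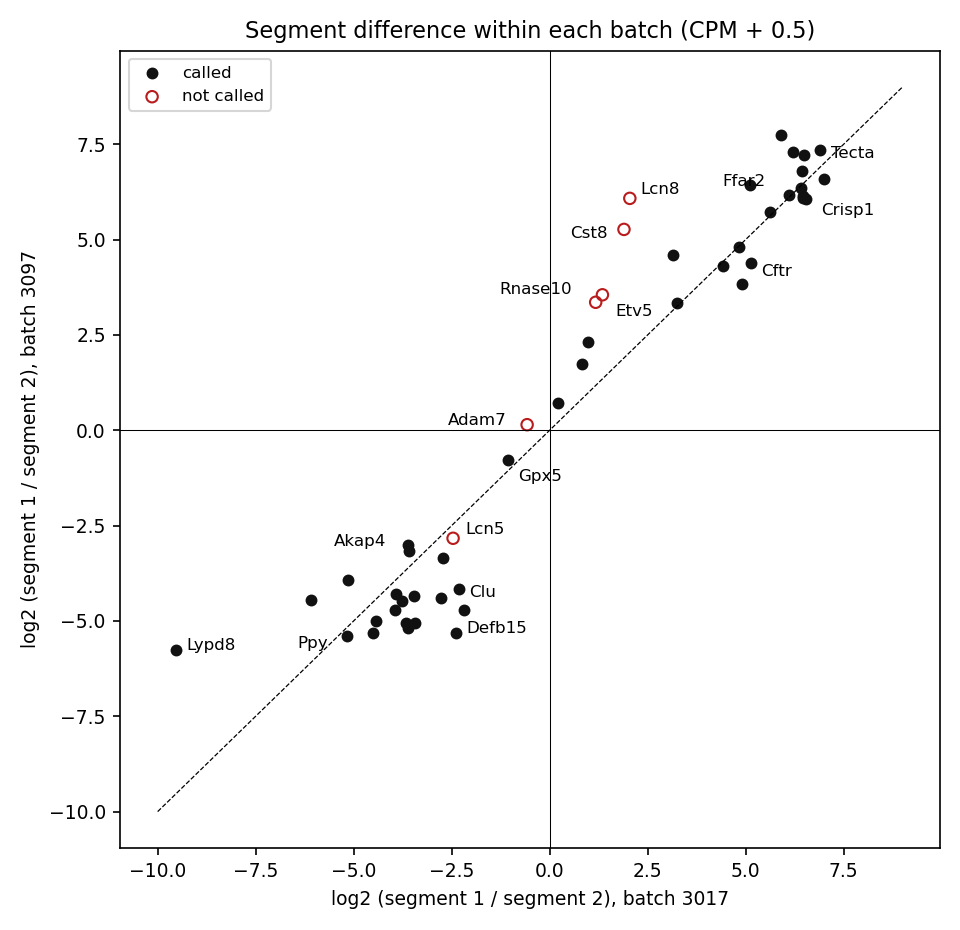
Log2 ratio of segment 1 to segment 2 (CPM + 0.5) within batch 3097 (vertical axis) against the same ratio within batch 3017 (horizontal axis), for the 30 genes with the largest differences and 22 preselected epididymal genes, 1 point a gene. Filled points were called, open red points were not, and the dashed line marks equal ratios; Lcn8, Cst8, Rnase10 and Etv5 lie above the line, with larger ratios in batch 3097.

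Targets and feedback regulators of ERK signalling were higher in segment 1 as a list: 16 of 21 were called higher in segment 1 and 3 higher in segment 2 (90.5% called against 43.2% of all genes), with a median log2 fold change of 1.72. Dusp6, the phosphatase that dephosphorylates ERK and is induced by it, was at 349 and 251 CPM in segment 1 and 66.4 and 20.6 CPM in segment 2. Dusp6 was higher in segment 1 (log2 fold change 2.91 ± 0.43 SE, adjusted p = 0.00282). Phlda1 measured 389.5 and 228 CPM in the segment 1 libraries and 78.1 and 33.4 CPM in those of segment 2. Phlda1 was higher in segment 1 (log2 fold change 2.51 ± 0.31 SE, adjusted p = 0.000993). Among the Sprouty and Spred inhibitors, Spry4 (2.57), Spred2 (1.35), Spred1 (1.05) and Spry2 (0.69) were all higher in segment 1. Myc stood at 0.976 and 0.924 CPM in segment 1 against 2.03 and 3.19 CPM in segment 2 and was higher in segment 2 (log2 fold change -1.44 ± 0.27 SE, adjusted p = 0.0025), as were Il17rd (-1.03) and Dusp7 (-0.38). The call of Il17rd was lost without either segment 1 library (adjusted p = 0.12 and 0.107) or the segment 2 library of batch 3097 (0.242), and so was that of Dusp7 (0.212, 0.111 and 0.405), so that 1 of the 3 was left in each case. Dusp7 was also not called by DESeq2 (adjusted p = 0.0766) or without the batch block (0.469), and the call of Spred1 was lost in the same 3 fits that left out a library (0.0658 to 0.0859).

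Growth factor genes divided between the segments, 10 of 26 called higher in segment 1 and 7 higher in segment 2 (65.4% called against 43.2% of all genes), with a median of 0.16. Receptors were on both sides: Met, the receptor for hepatocyte growth factor, was at 85.1 and 82.6 CPM in segment 1 and 25.02 and 13.04 CPM in segment 2. Met was higher in segment 1 (log2 fold change 2.15 ± 0.29 SE, adjusted p = 0.0011). Igf1r measured 714 and 447 CPM in the segment 1 libraries and 223 and 75.4 CPM in those of segment 2. Igf1r was higher in segment 1 (log2 fold change 2.07 ± 0.24 SE, adjusted p = 0.000495). Egfr stood at 12.6 and 13.9 CPM in segment 1 against 27.98 and 29.7 CPM in segment 2. Egfr was higher in segment 2 (log2 fold change -1.12 ± 0.18 SE, adjusted p = 0.00135). Of the EGF receptor ligands, Hbegf was higher in segment 1 (log2 fold change 2.40 ± 0.23 SE, adjusted p = 8.24e-05), and Tgfa (-0.94) and Egf (-1.12) were higher in segment 2; the call of Egf was lost without either segment 1 library or the segment 2 library of batch 3097 (adjusted p between 0.0544 and 0.0985). Without either segment 1 library the count of growth factor genes higher in segment 2 was 4. Immediate early genes, which cells switch on within minutes of a signal, were called higher in segment 1 in 10 of 19 cases and higher in segment 2 in 3 (68.4% called), with a median of 0.70. Egr1 was at 44.8 and 26.8 CPM in segment 1 and 4.71 and 9.75 CPM in segment 2. Egr1 was higher in segment 1 (log2 fold change 2.32 ± 0.40 SE, adjusted p = 0.00322). Ier3 measured 61.9 and 48.8 CPM in the segment 1 libraries and 9.09 and 3.25 CPM in those of segment 2. Ier3 was higher in segment 1 (log2 fold change 3.23 ± 0.33 SE, adjusted p = 0.000245). Atf3, a stress-induced member, stood at 1.15 and 1.37 CPM in segment 1 against 3.34 and 11.2 CPM in segment 2. Atf3 was higher in segment 2 (log2 fold change -2.43 ± 0.42 SE, adjusted p = 0.00271). The call of Egr1 was lost when only the 4 libraries compared were fitted (adjusted p = 0.0774), and 1 immediate early gene was higher in segment 2 without the segment 2 library of batch 3097.

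Positional and epithelial transcription factors were called in both directions. The share called was 63.3% in the Hox list and 63.3% in the epithelial list, against 43.2% of all genes. Of 30 Hox genes, 10 were higher in segment 1 and 9 in segment 2 (63.3% called); without the segment 1 or the segment 2 library of batch 3097 these counts were 6 and 5, and 5 were higher in segment 1 without the batch block. Hoxb1 was at 15.4 and 9.89 CPM in segment 1 and 3.20 and 1.29 CPM in segment 2. Hoxb1 was higher in segment 1 (log2 fold change 2.57 ± 0.27 SE, adjusted p = 0.000136). Hoxb7 measured 312 and 279 CPM in the segment 1 libraries and 125 and 125 CPM in those of segment 2. Hoxb7 was higher in segment 1 (log2 fold change 1.24 ± 0.10 SE, adjusted p = 3.99e-05). Hoxd3 stood at 3.58 and 4.17 CPM in segment 1 against 12.2 and 12.9 CPM in segment 2. Hoxd3 was higher in segment 2 (log2 fold change -1.69 ± 0.17 SE, adjusted p = 0.000103). Hoxb4 was at 28.7 and 28.04 CPM in segment 1 and 61.02 and 61.8 CPM in segment 2. Hoxb4 was higher in segment 2 (log2 fold change -1.12 ± 0.14 SE, adjusted p = 0.00029). Genes of the B cluster were thus found on both sides. Of 30 epithelial transcription factors, 9 were higher in segment 1 and 10 in segment 2, 5 without the segment 1 library of batch 3017. Pax8 measured 284 and 201 CPM in the segment 1 libraries and 67.6 and 71.5 CPM in those of segment 2. Pax8 was higher in segment 1 (log2 fold change 1.78 ± 0.15 SE, adjusted p = 5.63e-05). Elf5, an ETS factor of secretory epithelia, stood at 0.0501 and 0.0894 CPM in segment 1 against 0.619 and 2.77 CPM in segment 2. Elf5 was higher in segment 2 (log2 fold change -4.43 ± 0.75 SE, adjusted p = 0.00231). Hnf4a had 3 counts over both segment 2 libraries, and its ratio of segment 1 to segment 2 was 42.8, with a counting interval from 14.4 to 209.8.

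The lipocalin genes on chromosome 2 (GRCm38), which lie within 358.8 kb, did not share a direction. In order along the chromosome the log2 fold changes were -3.69 for Ptgds and -3.50 for Lcn12, then 3.24 for Lcn8, -2.71 for Lcn5, -1.52 for Lcn6, -0.05 for Lcn10, 8.49 for Lcn3 and 2.89 for Lcn9. Lcn12 was at 35.2 and 70.3 CPM in segment 1 and 490.5 and 684 CPM in segment 2. Lcn12 was higher in segment 2 (log2 fold change -3.50 ± 0.30 SE, adjusted p = 0.00014). Ptgds, prostaglandin D synthase, measured 51.9 and 89.5 CPM in the segment 1 libraries and 665 and 1161 CPM in those of segment 2. Ptgds was higher in segment 2 (log2 fold change -3.69 ± 0.33 SE, adjusted p = 0.000162). Lcn5, the next gene after Lcn8, stood at 52.9 and 87.2 CPM in segment 1 against 294 and 624 CPM in segment 2. Lcn5 was not called (log2 fold change -2.71 ± 0.96 SE, adjusted p = 0.0681). Per kilobase of exon, Lcn8 stood at 21446 CPM in segment 1 and Lcn5 at 79.4; in segment 2 the same genes stood at 2711 and 520.6. Lcn3 had no count in segment 2 and was at least 12.5-fold higher in segment 1, against a floor of 3 counts per library; its call was lost without the segment 1 library of batch 3017 (adjusted p = 0.0736). In all, 2 of 11 lipocalins were called higher in segment 1 and 3 higher in segment 2 (45.5% called against 43.2% of all genes), and 5 and 4 without the segment 2 library of batch 3017; the former count was 4 without the segment 2 library of batch 3097 and 1 without the segment 1 library of batch 3017.

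Cystatins, inhibitors of cysteine proteases, had 2 of 9 members called higher in segment 1 and 1 higher in segment 2, which is 33.3% against 43.2% of all genes. Within their 125.3 kb cluster on chromosome 2, Cst12 was at 1438 and 1372 CPM in segment 1 and 109 and 18.3 CPM in segment 2. Cst12 was higher in segment 1 (log2 fold change 4.30 ± 1.32 SE, adjusted p = 0.047). It lies between Cst8 and Cst11. Cst11 measured 3286 and 4104 CPM in the segment 1 libraries and 3987 and 2134 CPM in those of segment 2. Cst11 was not called (log2 fold change 0.24 ± 0.61 SE, adjusted p = 0.774). The call of Cst12 was lost without either segment 1 library (adjusted p = 0.19 and 0.0983) or the segment 2 library of batch 3097 (0.0978). Csta1 had no count in segment 2 and was at least 16.4-fold higher in segment 1. The count of cystatins higher in segment 1 was 4 without the segment 2 library of batch 3017 and 1 without either segment 1 library; none was higher in segment 2 without the segment 1 library of batch 3017 or the segment 2 library of batch 3097. In the RNase A family, 1 of 9 was higher in segment 1 (0 without either segment 1 library or the segment 2 library of batch 3097, 2 without that of batch 3017) and 2 higher in segment 2 (1 without either segment 1 library); Rnase6, a macrophage and epithelial antimicrobial RNase, stood at 2.43 and 3.49 CPM in segment 1 against 7.54 and 11.2 CPM in segment 2. Rnase6 was higher in segment 2 (log2 fold change -1.66 ± 0.18 SE, adjusted p = 0.000145). The share of the RNase A family called was 33.3%, against 43.2% of all genes. The neighbours of Rnase10 on chromosome 14, Rnase9, Rnase11 and Rnase12, were not called. Rnase12 was at 332 and 442 CPM in segment 1 and 306 and 310.4 CPM in segment 2. Rnase12 was not called (log2 fold change 0.33 ± 0.33 SE, adjusted p = 0.462). The sets of neighbouring genes were assembled after their values were seen.

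Neighbouring Teddm genes differed in direction. Teddm1b, which lies inside the annotated span of Teddm2 on chromosome 1 but on the opposite strand, measured 205 and 805 CPM in the segment 1 libraries and 3531 and 3135 CPM in those of segment 2. Teddm1b was higher in segment 2 (log2 fold change -2.87 ± 0.52 SE, adjusted p = 0.00559). Teddm2 was higher in segment 1. Teddm1a, also inside that span, stood at 7342 and 8641 CPM in segment 1 against 5985 and 1481 CPM in segment 2. Teddm1a was not called (log2 fold change 1.37 ± 0.95 SE, adjusted p = 0.295). The library kit marks strand, but the sources used here do not give the strand setting of the counting, so counts of overlapping genes are uncertain. Gm4846, which lies outside this group of neighbours on chromosome 1, was at 9467 and 10649 CPM in segment 1 and 649 and 39.5 CPM in segment 2. Gm4846 was higher in segment 1 (log2 fold change 5.22 ± 1.53 SE, adjusted p = 0.0395), and its call was lost without either segment 1 library (adjusted p = 0.101 and 0.107) or the segment 2 library of batch 3097 (0.0907).

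Spink and WAP domain protease inhibitors were lower in segment 1 as a list: 1 of 29 was called higher in segment 1 and 16 higher in segment 2 (58.6% called), with a median of -0.98. Spink12 measured 13.9 and 24.02 CPM in the segment 1 libraries and 98.01 and 519 CPM in those of segment 2. Spink12 was higher in segment 2 (log2 fold change -3.85 ± 0.60 SE, adjusted p = 0.00354). Spink5, an inhibitor of kallikreins in skin, stood at 277 and 425 CPM in segment 1 against 1400 and 3270 CPM in segment 2. Spink5 was higher in segment 2 (log2 fold change -2.69 ± 0.28 SE, adjusted p = 0.000173). Wfdc6b (-3.98), Wfdc9 (-3.66) and Wfdc3 (-3.002) followed, and segment 2 exceeded segment 1 in every library of these 5 genes. In 68.5% of all genes the segments did not overlap either. The exception was Wfdc18, with no count in segment 2 and at least 10.3-fold higher in segment 1. Serpins had 1 of 24 higher in segment 1, Serpine2, and 7 higher in segment 2 (33.3% called), with a median of -0.67. Serpinf2, the plasmin inhibitor, was at 191 and 275 CPM in segment 1 and 848 and 559 CPM in segment 2. Serpinf2 was higher in segment 2 (log2 fold change -1.56 ± 0.29 SE, adjusted p = 0.005). Without the segment 1 library of batch 3017, 4 serpins were higher in segment 2 and none in segment 1, where the adjusted p of Serpine2 was 0.0523.

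Beta-defensins, small cationic antimicrobial peptides, were called in 2 of 31 cases higher in segment 1 and in 6 higher in segment 2, which is 25.8% of the list against 43.2% of all genes. Besides Defb48, Defb43 was the other called member higher in segment 1 (1.33), and its call was lost without either segment 1 library or the segment 2 library of batch 3097 (adjusted p between 0.0536 and 0.258). Defb18 measured 143 and 385 CPM in the segment 1 libraries and 1459 and 1255 CPM in those of segment 2. Defb18 was higher in segment 2 (log2 fold change -2.36 ± 0.66 SE, adjusted p = 0.0321). Defb45 stood at 20.7 and 27.2 CPM in segment 1 against 73.6 and 156 CPM in segment 2. Defb45 was higher in segment 2 (log2 fold change -2.24 ± 0.48 SE, adjusted p = 0.0125). Both calls were lost without the segment 1 library of batch 3017 (adjusted p = 0.109 and 0.0871) or the segment 2 library of batch 3097 (0.13 and 0.0892), that of Defb18 also without the segment 2 library of batch 3017 (0.116) and that of Defb45 without the segment 1 library of batch 3097 (0.0659). Defb20, the most abundant member in segment 2, was at 3251 and 4338 CPM in segment 1 and 9002 and 4287 CPM in segment 2. Defb20 was not called (log2 fold change -0.75 ± 0.40 SE, adjusted p = 0.176). The count higher in segment 2 was 1 without the segment 1 library of batch 3017 and 3 without either library of batch 3097. Many defensins are close copies of one another, so counts of single members are uncertain.

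CRISP, Ly6 and Pate genes, whose products coat sperm or sit on the cell surface, had 5 of 23 members higher in segment 1 and 8 higher in segment 2 (56.5% called); the latter count was between 3 and 5 without any 1 of the 4 libraries. Ly6g5b measured 3051 and 3020 CPM in the segment 1 libraries and 547 and 83.99 CPM in those of segment 2. Ly6g5b was higher in segment 1 (log2 fold change 3.32 ± 0.88 SE, adjusted p = 0.028), a call lost without the segment 1 library of batch 3017 (adjusted p = 0.104) or 3097 (0.0844). Its neighbour Ly6g5c stood at 1185 and 1071 CPM in segment 1 against 1342 and 339 CPM in segment 2. Ly6g5c was not called (log2 fold change 0.58 ± 0.54 SE, adjusted p = 0.424). Crisp2, a gene of spermatids, was at 0.776 and 1.28 CPM in segment 1 and 16.8 and 15.8 CPM in segment 2. Crisp2 was higher in segment 2 (log2 fold change -4.002 ± 0.32 SE, adjusted p = 4.58e-05), opposite in direction to Crisp1. ADAM and serine proteases had 9 of 26 higher in segment 1 and 5 higher in segment 2 (53.8% called); without the segment 1 library of batch 3017 the former count was 5. Plat, tissue plasminogen activator, measured 18.2 and 20.4 CPM in the segment 1 libraries and 2.86 and 7.24 CPM in those of segment 2. Plat was higher in segment 1 (log2 fold change 2.06 ± 0.29 SE, adjusted p = 0.00097). Hpn, hepsin, stood at 8.61 and 13.2 CPM in segment 1 against 35.1 and 44.9 CPM in segment 2. Hpn was higher in segment 2 (log2 fold change -1.88 ± 0.21 SE, adjusted p = 0.000264). Adam7, a sperm-bound ADAM protein and the second most abundant gene of segment 1 by counts, was at 17768 and 23096 CPM in segment 1 and 26480 and 20884 CPM in segment 2. Adam7 was not called (log2 fold change -0.22 ± 0.17 SE, adjusted p = 0.334), and its segments overlapped.

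Glutathione and redox genes were higher in segment 2 in 22 of 41 cases and higher in segment 1 in 7 (70.7% called), with a median of -0.43. Gpx5, the secreted epididymal glutathione peroxidase, took the largest share of counts in each of the 4 libraries, 2.51% and 3.36% in segment 1 and 5.34% and 6.03% in segment 2. Its level was 26632 and 36425 CPM in segment 1 and 55984 and 62631 CPM in segment 2 (log2 fold change -0.92 ± 0.18 SE, adjusted p = 0.00319). The segments of Gpx5 did not overlap, which was also so for 68.5% of all genes. Fitted on the 4 libraries alone, Gpx5 was not called (adjusted p = 0.205). Gpx3, the plasma glutathione peroxidase, measured 38.5 and 38.4 CPM in the segment 1 libraries and 146 and 483 CPM in those of segment 2. Gpx3 was higher in segment 2 (log2 fold change -2.99 ± 0.55 SE, adjusted p = 0.00666). Gstm5 (-2.03), Mgst3 (-2.69) and Ggt1 (-3.14) were also higher in segment 2. Thioredoxin, Txn1 (1.34), Gclm (0.70) and Ggt7 (2.89) were higher in segment 1. Without the segment 1 library of batch 3097 the counts were 14 and 4, and the call of Gpx3 was lost (adjusted p = 0.0534).

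Ion, bicarbonate and water transport genes were called in both directions. Cftr, the chloride and bicarbonate channel mutated in cystic fibrosis, stood at 211 and 194 CPM in segment 1 against 5.54 and 8.85 CPM in segment 2. Cftr was higher in segment 1 (log2 fold change 4.88 ± 0.35 SE, adjusted p = 0.000133). Scnn1b, a subunit of the epithelial sodium channel, was at 1.93 and 2.47 CPM in segment 1 and 0.172 and 0.161 CPM in segment 2. Scnn1b was higher in segment 1 (log2 fold change 3.69 ± 0.62 SE, adjusted p = 0.00134). Neither gene's segments overlapped, which was also so for 68.5% of all genes. Ano1, a calcium-activated chloride channel, measured 99.8 and 105 CPM in the segment 1 libraries and 217 and 358 CPM in those of segment 2. Ano1 was higher in segment 2 (log2 fold change -1.48 ± 0.18 SE, adjusted p = 0.000343). Slc12a7, a potassium-chloride cotransporter, stood at 10.6 and 13.1 CPM in segment 1 against 41.6 and 44.01 CPM in segment 2. Slc12a7 was higher in segment 2 (log2 fold change -1.85 ± 0.15 SE, adjusted p = 4.62e-05). Of 32 genes in the list, 8 were higher in segment 1 and 14 in segment 2 (68.8% called), with a median of -0.44. Amino acid transporters had 6 of 28 higher in segment 1 and 8 higher in segment 2 (50% called against 43.2% of all genes, median -0.04); without either segment 1 library the latter count was 5. Slc38a5, a glutamine and neutral amino acid transporter, was at 599 and 1169 CPM in segment 1 and 6921 and 9766 CPM in segment 2. Slc38a5 was higher in segment 2 (log2 fold change -3.26 ± 0.26 SE, adjusted p = 4.49e-05). Slc7a8 measured 248 and 197 CPM in the segment 1 libraries and 47.6 and 43.2 CPM in those of segment 2. Slc7a8 was higher in segment 1 (log2 fold change 2.29 ± 0.13 SE, adjusted p = 1.38e-05). Slc7a11, which imports cystine, stood at 104 and 96.8 CPM in segment 1 against 2.27 and 1.26 CPM in segment 2. Slc7a11 was not called (log2 fold change 6.15 ± 2.13 SE, adjusted p = 0.0676), and its segments did not overlap, as in 68.5% of all genes.

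Cholesterol synthesis and efflux genes were higher in segment 1 in 18 of 31 cases and higher in segment 2 in 2. The share called was 64.5%, against 43.2% of all genes, and the median was 0.75. Dhcr7, the last enzyme of one branch of synthesis, was at 25.01 and 25.7 CPM in segment 1 and 4.23 and 1.77 CPM in segment 2. Dhcr7 was higher in segment 1 (log2 fold change 3.11 ± 0.37 SE, adjusted p = 0.000308). Lss, lanosterol synthase, measured 177 and 206 CPM in the segment 1 libraries and 74.1 and 45.9 CPM in those of segment 2. Lss was higher in segment 1 (log2 fold change 1.66 ± 0.24 SE, adjusted p = 0.00142). Srebf2, the transcription factor that drives these genes, stood at 398 and 346 CPM in segment 1 against 255 and 246 CPM in segment 2. Srebf2 was higher in segment 1 (log2 fold change 0.57 ± 0.10 SE, adjusted p = 0.00193). Fdps was one of the 2 higher in segment 2 (-0.84), with a call lost without the segment 1 or the segment 2 library of batch 3097 (adjusted p = 0.0621 and 0.0866), which left 1 such gene in each case. Chaperones and unfolded protein response genes had 11 of 27 higher in segment 1 and 1 higher in segment 2 (44.4% called), in small steps: the list's median was 0.20, Xbp1 stood at 0.60 and Sec61a1 at 0.53 (log2 fold changes). Without the segment 1 library of batch 3097 the former count was 6; the latter was 0 without the segment 1 library of batch 3017 or the segment 2 library of batch 3097 and 2 without that of batch 3017.

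Proliferation genes were higher in segment 1 in 21 of 26 cases and higher in segment 2 in 1. The share called was 84.6%, against 43.2% of all genes, and the median was 1.42. Mki67, a nuclear marker of cycling cells, was at 33.4 and 39.4 CPM in segment 1 and 7.95 and 9.11 CPM in segment 2. Mki67 was higher in segment 1 (log2 fold change 2.10 ± 0.51 SE, adjusted p = 0.0164). Cdk1 measured 6.94 and 8.52 CPM in the segment 1 libraries and 1.48 and 3.28 CPM in those of segment 2. Cdk1 was higher in segment 1 (log2 fold change 1.85 ± 0.42 SE, adjusted p = 0.00696). Ube2c stood at 5.41 and 5.42 CPM in segment 1 against 1.10 and 1.48 CPM in segment 2. Ube2c was higher in segment 1 (log2 fold change 2.11 ± 0.39 SE, adjusted p = 0.00226). Segment 1 exceeded segment 2 in each library of these 3 genes. In 68.5% of all genes the segments did not overlap either. The count of 21 was 8 without the segment 1 library of batch 3017 and 10 without the segment 2 library of batch 3097, and no member was called higher in segment 2 without either of these or without the segment 1 library of batch 3097. The call of Mki67 was lost without the segment 1 library of batch 3017 (adjusted p = 0.0923) or either segment 2 library (0.0613 and 0.142), and that of Cdk1 without the first (0.0735) or without the batch block (0.107).

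Cytosolic ribosomal protein genes were higher in segment 2 in 24 of 73 cases and higher in segment 1 in 1 (34.2% called against 43.2% of all genes), with a median of -0.33. That count depended on single libraries: it was 52 without the segment 2 library of batch 3017, 4 without the segment 1 library of batch 3097 and 2 without either of the others. Without the batch block it was 13, and in the fit of the 4 libraries compared it was 6. Rpl10a was higher in segment 2 (log2 fold change -0.79 ± 0.12 SE, adjusted p = 0.000757) and Rplp0 higher in segment 1 (log2 fold change 0.49 ± 0.13 SE, adjusted p = 0.0115); the call of Rplp0 was lost without the segment 1 library of batch 3017 (adjusted p = 0.102), which left none higher in segment 1. Oxidative phosphorylation genes were called in 1 of 32 cases higher in segment 1 and 6 higher in segment 2 (21.9% called), and the latter count was 2 without either segment 1 library or the segment 2 library of batch 3097; the former was 0 without the segment 1 library of batch 3017 or the segment 2 library of batch 3097. Of 18 mitochondrially encoded genes, 4 were higher in segment 2 (22.2% called), a count that fell without either segment 1 library.

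Androgen and steroid genes were higher in segment 2 in 8 of 18 cases and higher in segment 1 in 3 (61.1% called). Fkbp5, a co-chaperone of steroid receptor complexes, was at 570.4 and 623 CPM in segment 1 and 948 and 901 CPM in segment 2. Fkbp5 was higher in segment 2 (log2 fold change -0.63 ± 0.12 SE, adjusted p = 0.00306). Esr2, estrogen receptor beta, measured 4.56 and 6.35 CPM in the segment 1 libraries and 18.5 and 21.2 CPM in those of segment 2. Esr2 was higher in segment 2 (log2 fold change -1.87 ± 0.22 SE, adjusted p = 0.000209). Of the steroid 5-alpha reductases, Srd5a1 was higher in segment 1, and Srd5a2 stood at 126 and 203 CPM in segment 1 against 329.7 and 229 CPM in segment 2. Srd5a2 was higher in segment 2 (log2 fold change -0.79 ± 0.26 SE, adjusted p = 0.0425), a call lost without the segment 1 or the segment 2 library of batch 3017 (adjusted p = 0.212 and 0.241). Without the segment 1 library of batch 3097, no member of the list was called higher in segment 1; without the segment 2 library of that batch, 1 was. Retinoid genes had 4 of 19 higher in segment 1 and 3 higher in segment 2 (36.8% called against 43.2% of all genes). The latter count was 7 without the segment 2 library of batch 3017, and the former count was 2 without either segment 1 library.

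Complement genes were called in 12 of 15 cases (80% against 43.2% of all genes). Of these, 3 were higher in segment 1 and 9 higher in segment 2, and the list's median was -0.60. The 3 chains of C1q were the ones higher in segment 1, C1qb among them (log2 fold change 0.49 ± 0.11 SE, adjusted p = 0.00618), chains that macrophages are known to make; the calls of C1qa and C1qc were lost without the segment 1 library of batch 3017 (adjusted p = 0.0768 and 0.0659), and that of C1qa also without the segment 2 library of batch 3097 (0.0596). The call of C1qb was lost without the segment 1 library of batch 3097 (adjusted p = 0.058), without the batch block (0.0749) and in the fit of the 4 libraries compared (0.0561). Clu, clusterin, an abundant sperm-coating chaperone, was at 453 and 564 CPM in segment 1 and 2252 and 10050 CPM in segment 2. Clu was higher in segment 2 (log2 fold change -3.50 ± 0.61 SE, adjusted p = 0.00435). C3 measured 24.01 and 39.002 CPM in the segment 1 libraries and 90.8 and 84.8 CPM in those of segment 2. C3 was higher in segment 2 (log2 fold change -1.50 ± 0.27 SE, adjusted p = 0.00399). Without the segment 1 library of batch 3017 the counts were 1 and 3. Interferon response genes had 4 of 28 higher in segment 1 and 10 higher in segment 2 (50% called), with a median of -0.52; Psmb8, an immunoproteasome subunit, stood at 6.96 and 8.16 CPM in segment 1 against 15.9 and 22.5 CPM in segment 2. Psmb8 was higher in segment 2 (log2 fold change -1.34 ± 0.14 SE, adjusted p = 0.000134). The 10 became 3 without the segment 1 library of batch 3017, and the 4 became 1 without that of batch 3097 and 2 without the segment 2 library of batch 3097. Glycosylation and sialylation enzymes had 5 of 26 higher in segment 1 and 10 higher in segment 2 (57.7% called); the former count was 1 without either segment 1 library and 2 without the segment 2 library of batch 3097. The sialyltransferase gene St6galnac2 was at 232 and 176 CPM in segment 1 and 8.74 and 7.86 CPM in segment 2. St6galnac2 was higher in segment 1 (log2 fold change 4.61 ± 0.20 SE, adjusted p = 5.93e-06). These values belong to 1 of 2 gene IDs that share that symbol. Both IDs are counted among the 26, and the values of the other are not reported here. Fut1, a fucosyltransferase, measured 9.34 and 14.8 CPM in the segment 1 libraries and 35.9 and 81.3 CPM in those of segment 2. Fut1 was higher in segment 2 (log2 fold change -2.25 ± 0.31 SE, adjusted p = 0.00163).

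**Figure D4:**
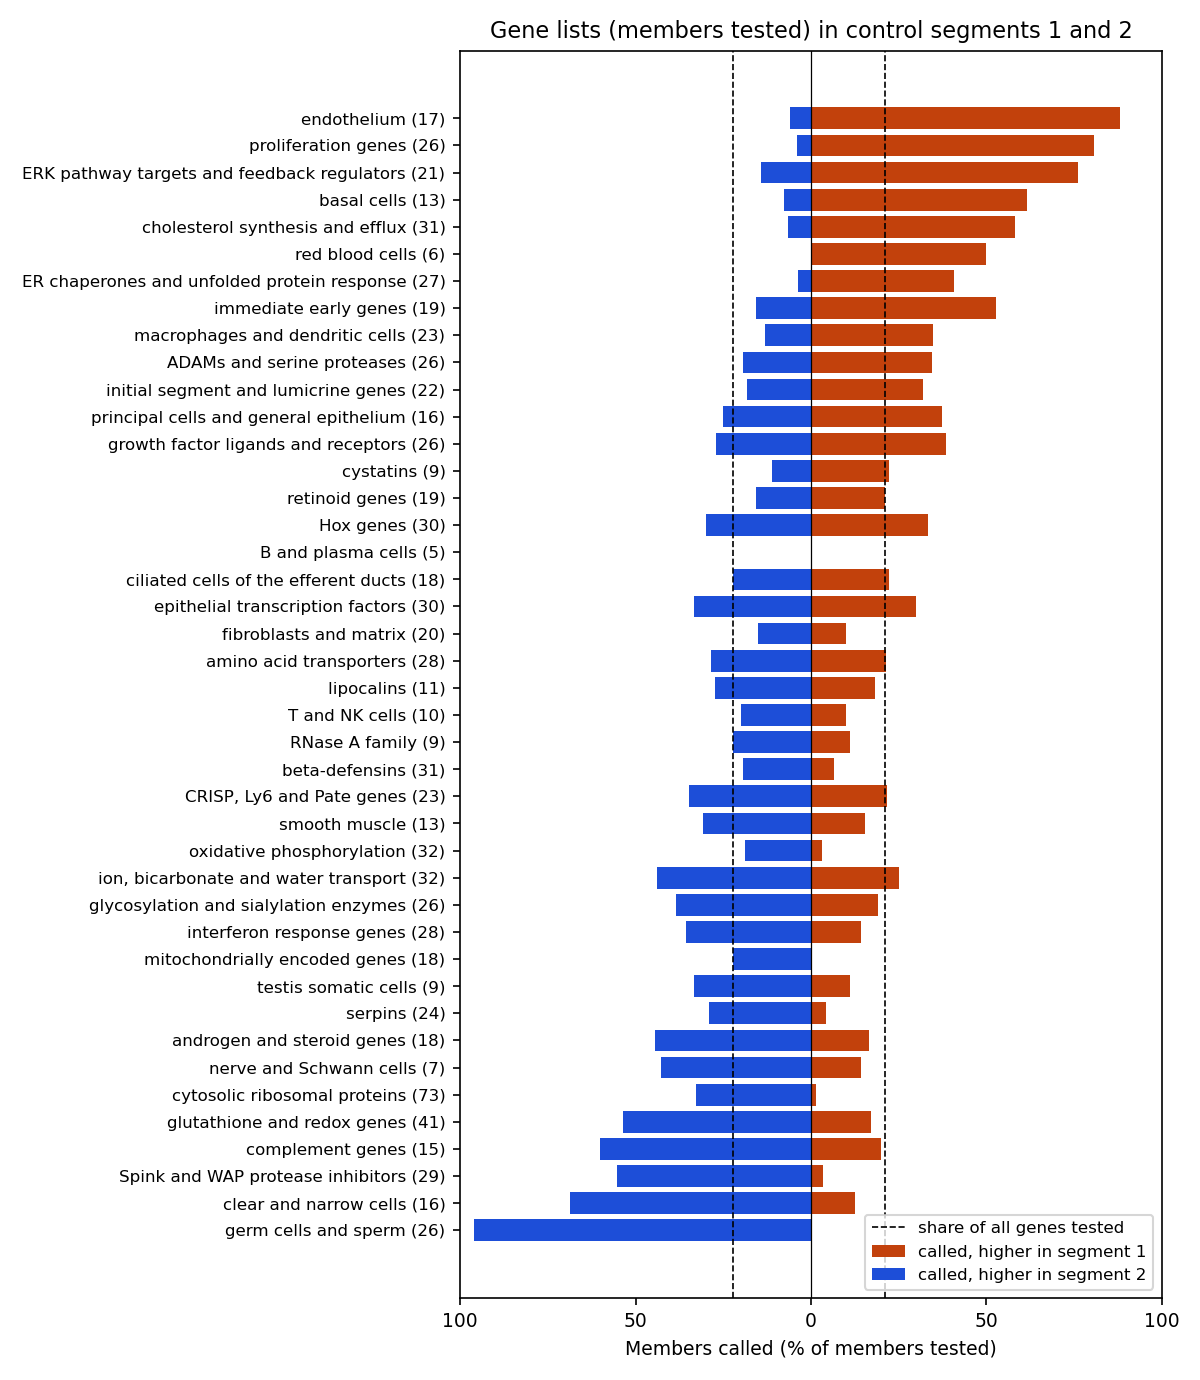
Share of tested members called higher in segment 1 (orange, to the right) and higher in segment 2 (blue, to the left) for each gene list with at least 5 members tested; the number tested is in parentheses. The dashed lines mark the shares of all 19213 genes, 21.1% and 22.1%. Endothelial, proliferation and ERK genes reach furthest to the right, and sperm, clear cell and complement genes furthest to the left.

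Marker lists of cells other than principal cells were called at unlike shares, against 43.2% of all genes. Among lists with at least 9 members tested, sperm (96.2%), endothelial (94.1%), clear and narrow cell (81.2%) and basal cell (69.2%) markers were above it. Macrophage (47.8%), smooth muscle (46.2%), ciliated cell (44.4%) and testis somatic (44.4%) markers were near it. T and NK cell (30%) and fibroblast (25%) markers were below it. Endothelial markers were higher in segment 1 in 15 of 17 cases and higher in segment 2 in 1, Egfl7, with a median of 1.83; their summed level was 257.0 and 246.6 CPM in segment 1 and 107.2 and 83.3 CPM in segment 2. Kdr, the VEGF receptor of blood vessels, stood at 23.8 and 25.7 CPM in segment 1 against 1.86 and 1.09 CPM in segment 2. Kdr was higher in segment 1 (log2 fold change 4.09 ± 0.51 SE, adjusted p = 0.000656). Plvap, a protein of fenestrated capillaries, was at 19.9 and 15.7 CPM in segment 1 and 1.65 and 1.09 CPM in segment 2. Plvap was higher in segment 1 (log2 fold change 3.70 ± 0.40 SE, adjusted p = 0.000173). The segments did not overlap for Kdr or Plvap, which was also so for 68.5% of all genes. The call of Egfl7 was lost without the segment 1 library of batch 3017 or the segment 2 library of batch 3097. Of 6 red blood cell genes, 3 were higher in segment 1 and none in segment 2 (50% called). Their summed level was 16.3 and 10.5 against 5.02 and 2.87 CPM. Lymphatic markers had 2 of 3 higher in segment 1 (66.7% called). Flt4 measured 3.18 and 2.53 CPM in the segment 1 libraries and 0.964 and 0.869 CPM in those of segment 2. Flt4 was higher in segment 1 (log2 fold change 1.65 ± 0.30 SE, adjusted p = 0.00195), and the count was 1 without either segment 1 library.

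Clear and narrow cells acidify the lumen with a vacuolar proton pump, and their markers were higher in segment 2 in 11 of 16 cases and higher in segment 1 in 2, with a median of -1.29. Their summed level was 353.9 and 474.2 CPM in segment 1 and 966.0 and 1199 CPM in segment 2. Foxi1, the transcription factor that specifies them, stood at 14.1 and 25.6 CPM in segment 1 against 105 and 124 CPM in segment 2. Foxi1 was higher in segment 2 (log2 fold change -2.54 ± 0.23 SE, adjusted p = 0.000158). Rhcg, an ammonium transporter, was at 64.2 and 121 CPM in segment 1 and 423 and 679 CPM in segment 2. Rhcg was higher in segment 2 (log2 fold change -2.59 ± 0.26 SE, adjusted p = 0.000215). Car2, carbonic anhydrase 2, which principal cells express as well, was one of the 2 exceptions (log2 fold change 1.86 ± 0.17 SE, adjusted p = 8.24e-05), and Atp6v0d2 was the other (log2 fold change 0.93 ± 0.13 SE, adjusted p = 0.000665). The count higher in segment 2 was 7 without the segment 1 library of batch 3017.

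Basal cell markers were higher in segment 1 in 8 of 13 cases and higher in segment 2 in 1, with a median of 0.80 and a summed level of 707.6 and 716.2 CPM against 486.5 and 470.5. Trp63, their defining transcription factor, measured 111 and 97.2 CPM in the segment 1 libraries and 50.6 and 45.01 CPM in those of segment 2. Trp63 was higher in segment 1 (log2 fold change 1.12 ± 0.13 SE, adjusted p = 0.000193). Krt5 stood at 69.2 and 80.6 CPM in segment 1 against 90.4 and 115 CPM in segment 2. Krt5 was higher in segment 2 (log2 fold change -0.45 ± 0.09 SE, adjusted p = 0.00356), a call lost without the batch block (0.155). General epithelial markers were called 6 higher in segment 1 and 4 higher in segment 2 of 16 (62.5% called against 43.2% of all genes). Their sums were 4346 and 4007 CPM against 4024 and 4559. Krt19 was at 58.9 and 77.3 CPM in segment 1 and 336 and 555 CPM in segment 2. Krt19 was higher in segment 2 (log2 fold change -2.70 ± 0.18 SE, adjusted p = 2.60e-05). Macrophage and dendritic cell markers had 8 of 23 higher in segment 1, such as Lyz2 (log2 fold change 1.32 ± 0.13 SE, adjusted p = 9.22e-05), and 3 higher in segment 2, with sums of 262.5 and 285.4 CPM against 242.7 and 234.5; the former count was 5 without the segment 1 library of batch 3017, and the latter 1 without either segment 1 library.

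Smooth muscle markers were called in both directions. Actg2, an enteric-type smooth muscle actin, measured 2871 and 2856 CPM in the segment 1 libraries and 400.3 and 64.2 CPM in those of segment 2. Actg2 was higher in segment 1 (log2 fold change 3.76 ± 0.79 SE, adjusted p = 0.0123). Mylk was also higher in segment 1 (log2 fold change 1.70 ± 0.24 SE, adjusted p = 0.00126), whereas Acta2 stood at 88.2 and 107 CPM in segment 1 against 145 and 162 CPM in segment 2. Acta2 was higher in segment 2 (log2 fold change -0.66 ± 0.10 SE, adjusted p = 0.000703). Myh11 was at 94.96 and 121 CPM in segment 1 and 174 and 155 CPM in segment 2. Myh11 was higher in segment 2 (log2 fold change -0.63 ± 0.16 SE, adjusted p = 0.0108). The call of Myh11 was lost without the segment 1 or the segment 2 library of batch 3017 (adjusted p = 0.0892 and 0.0588), and that of Actg2 when only the 4 libraries compared were fitted (0.0653). Of 13 markers, 2 were higher in segment 1 and 4 in segment 2 (46.2% called, near the 43.2% of all genes). Fibroblast and matrix markers were called in 5 of 20 cases, 2 higher in segment 1 and 3 higher in segment 2; without the segment 1 or the segment 2 library of batch 3017, 1 was higher in segment 2, and without either segment 1 library 1 was higher in segment 1. Pdgfra measured 527 and 511 CPM in the segment 1 libraries and 219 and 53.5 CPM in those of segment 2. Pdgfra was higher in segment 1 (log2 fold change 2.03 ± 0.61 SE, adjusted p = 0.0424), a call lost without the segment 1 library of batch 3017 (adjusted p = 0.12) or 3097 (0.138), while the collagen gene Col1a2 stood at 24.9 and 34.5 CPM in segment 1 against 27.3 and 30.6 CPM in segment 2.

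Of 10 T and NK cell markers, 1 was higher in segment 1 and 2 in segment 2 (1 without the segment 2 library of batch 3017, 0 without that of batch 3097). The one was Klrb1c, the NK receptor gene NK1.1, at 554 and 424 CPM in segment 1 and 82.6 and 17.3 CPM in segment 2 (log2 fold change 3.38 ± 0.72 SE, adjusted p = 0.0133); its call was lost without the segment 1 library of batch 3017 (adjusted p = 0.0709), which left none, and every other tested member of the list lay under 3 CPM in the 4 libraries. None of 5 B and plasma cell markers was called, with sums of 4.23 and 4.35 CPM against 3.34 and 3.41. Nerve and Schwann cell markers were called at 57.1% and mesothelial markers at 66.7%, against 43.2% of all genes, with few members tested. Nerve and Schwann cell markers had 1 of 7 higher in segment 1 and 3 higher in segment 2, mesothelial markers 1 of 3 called each way, and testis somatic cell markers 1 of 9 and 3 of 9; the 3 nerve markers higher in segment 2 became 1 without either segment 1 library and 0 without the segment 2 library of batch 3097. Markers of the ciliated cells of the efferent ducts, the tubules just before the epididymis, had 4 of 18 higher in each segment (2 in segment 1 without the segment 1 library of batch 3017), with a summed level of 125.9 and 118.1 CPM in segment 1 and 158.7 and 193.0 CPM in segment 2. Foxj1, their defining factor, was at 7.66 and 5.07 CPM in segment 1 and 2.06 and 1.93 CPM in segment 2. Foxj1 was higher in segment 1 (log2 fold change 1.67 ± 0.29 SE, adjusted p = 0.00173), whereas Mcidas and Deup1 were among the 4 called higher in segment 2. The ciliated cell list was called at 44.4%, against 43.2% of all genes, with a median of -0.14.

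Transcripts of spermatids and sperm were higher in segment 2 in 25 of 26 cases and higher in segment 1 in none, with a median of -3.61. Prm1, which encodes a protamine that packs sperm DNA, measured 1.28 and 1.46 CPM in the segment 1 libraries and 21.1 and 15.4 CPM in those of segment 2. Prm1 was higher in segment 2 (log2 fold change -3.71 ± 0.33 SE, adjusted p = 6.45e-05). Akap4, a scaffold of the sperm tail, stood at 0.926 and 1.04 CPM in segment 1 against 16.8 and 13.2 CPM in segment 2. Akap4 was higher in segment 2 (log2 fold change -3.92 ± 0.29 SE, adjusted p = 8.58e-05). Tnp2 was at 0.551 and 0.983 CPM in segment 1 and 19.8 and 14.004 CPM in segment 2. Tnp2 was higher in segment 2 (log2 fold change -4.44 ± 0.38 SE, adjusted p = 6.10e-05). Odf1, a protein of the outer dense fibres, measured 1.98 and 2.56 CPM in the segment 1 libraries and 41.95 and 47.3 CPM in those of segment 2. Odf1 was higher in segment 2 (log2 fold change -4.30 ± 0.34 SE, adjusted p = 9.46e-05). Segment 2 exceeded segment 1 in every library of these 4 genes, and each of the 4 kept its call in all 4 fits that left out 1 library. In 68.5% of all genes the segments did not overlap either. The summed level of the list was 110.9 and 109.9 CPM in segment 1 and 478.8 and 409.7 CPM in segment 2. Spata3, the member that was not called, stood at 23.6 and 23.99 CPM in segment 1 against 25.7 and 23.6 CPM in segment 2.

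**Figure D5:**
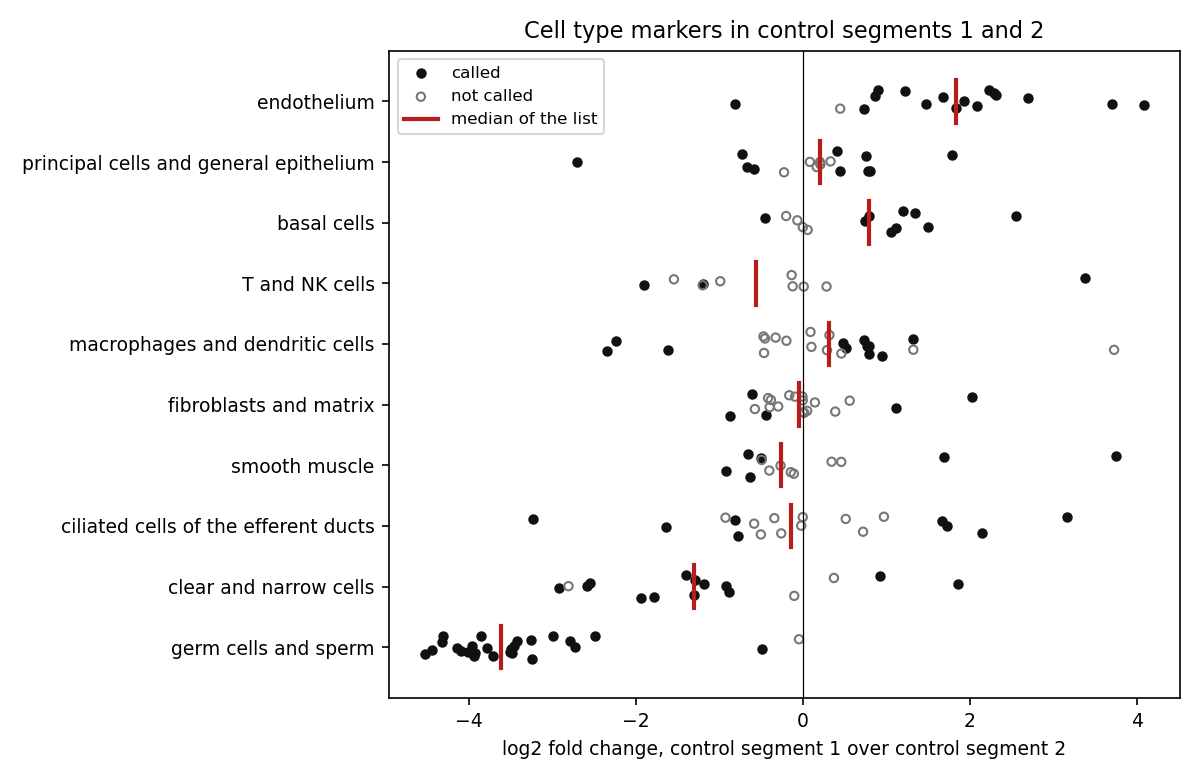
Log2 fold change of segment 1 over segment 2 (horizontal axis) of each tested marker gene, by cell type. Filled points were called, open points were not, and red bars are list medians; the bar lies at 1.83 for endothelium, -1.29 for clear and narrow cells and -3.61 for germ cells and sperm.

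The makeup of the libraries moved with the segments in another way. Gm42418, a locus on chromosome 17 known to collect reads of ribosomal RNA, took 0.349% and 0.254% of counts in segment 1 and 3.11% and 2.71% in segment 2 (log2 fold change -3.24 ± 0.52 SE, adjusted p = 0.00281). Gm23935, on chromosome 16, took 0.119% and 0.06% against 0.937% and 0.606% (log2 fold change -3.12 ± 0.57 SE, adjusted p = 0.00606), a call lost without the segment 2 library of batch 3097 (adjusted p = 0.0506). In control segment 3 Gm42418 took 2.47% and 0.728% of counts, beside a summed sperm list of 459.6 and 276.6 CPM. In ligated segments 1 and 2 it took 0.119% to 0.186%, beside a summed sperm list of 64.4 to 80.1 CPM. With both loci left out, an alternative added after the values were seen, 8345 genes were called and 8189 of the calls were shared. Among 1719 long non-coding RNA genes, 191 were higher in segment 1 and 399 higher in segment 2 (34.3% called), with a median of -0.40. Among 15194 protein-coding genes, 3747 were higher in segment 1 and 3472 in segment 2 (47.5% called), with a median of 0.02. Of all genes, 21.1% were higher in segment 1 and 22.1% higher in segment 2. This count by gene type was made after the values were seen. The part of the count shares of Gm42418 and Gm23935 in the gene lists above was not tested.

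In the ligated epididymis the same pair of segments differed in far fewer genes. Of the 19213 genes, 249 were called between ligated segments 1 and 2 (1.3%), 232 higher in segment 1 (1.21%) and 17 higher in segment 2 (0.0885%). The count rested on single libraries: without the ligated segment 2 library of batch 3097 it was 0, with 1933 genes at an unadjusted p under 0.05 by edgeR and 527 genes called by DESeq2 on all libraries, and without the other ligated libraries it was between 2 and 192. The size of the segment difference itself differed between control and ligated tissue in 3561 genes (18.5%), with 1575 more positive in control tissue (8.2%) and 1986 more negative (10.3%). That count was 1614 and 2325 without the control segment 1 libraries of batches 3017 and 3097, 1767 without the ligated segment 1 library of batch 3017, 1784 and 1703 without the ligated segment 2 libraries of batches 3017 and 3097, and 2255 without the batch block. None of the 30 genes ranked at the ends in control tissue was called between the ligated segments, where only 1.3% of all genes were. Some list members were: of 26 proliferation genes, 10 were called higher in ligated segment 1 and 0 in ligated segment 2 (median 1.71). Of 18 ciliated cell markers, 10 were called higher in ligated segment 1 and 0 in ligated segment 2 (median 1.91). These 2 lists had the most calls. In the libraries of ligated segments 1 and 2, 3 counts corresponded to 0.07 to 0.084 CPM. For the 15 genes highest in control segment 1 the median level was 0.149 CPM in ligated segment 1 and 0.265 in ligated segment 2; for the 15 genes highest in control segment 2 these medians were 37.6 and 46.0 CPM.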

How the data were processed

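PolyA-selected RNA (500 ng) from pools of 2 mice was made into directional libraries, per the labels' protocols. The deposited values are raw counts per gene, 1 table for each of the 2 sequencing batches; the submitters' processing notes name Trim Galore 0.6.0, cutadapt, FastQC, STAR 2.7.0e and GRCm38 (mm10), with no roles given. The sources used here do not name the tool, strand setting or annotation behind the counts; all 55536 gene IDs matched GENCODE mouse release 21.

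Counts of all 12 libraries were fitted with edgeR 4.0.16 (quasi-likelihood test, group and batch as terms, TMM scaling, filterByExpr with a minimum count of 10, which kept 19213 genes). The 6 groups have 2 libraries each and share 1 estimate of the spread, on 5 residual degrees of freedom. The same fit gave the ligated segments and the difference between control and ligated tissue. Batch pairs the libraries, per the series' design text, and deviations of the same-batch libraries of control segments 1 and 2 correlated at 0.26 across genes. The fit was tested on simulated data. Ratios within a batch used CPM + 0.5. Lower bounds for genes with no count used 3 counts per library; these and the 95% counting interval cover counting error only.

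Genes were named by rule: the 15 highest and 15 lowest log2 fold changes among called genes averaging 10 CPM or more in the higher segment, the 10 most abundant genes of each segment, up to 2 called members of each list in each direction, and 22 preselected epididymal genes. The members and the 46 gene lists were chosen with earlier results of these data known. Another 48 list members (39 called) were named after their values were seen, as were the gene neighbourhoods, the gene types and the loci Gm42418 and Gm23935. Promoter windows were cut to the 250 bases before the start, where the plan had 300 bases with 50 after it. Alternatives were DESeq2 1.42.0, other scalings and filters, no batch block, fits on fewer libraries and each library left out in turn. Some genes of the rule and lists are not reported here.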

Additional observations from a re-analysis of the deposited data

Results flagged for a closer look

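The difference between segments 1 and 2 was itself different in control and ligated tissue for 9 of the 22 preselected genes, against 18.5% of all genes, by edgeR's interaction test with Benjamini-Hochberg adjustment over 19213 genes. The 22 were chosen with earlier results of these data known. Values are the control log2 fold change minus the ligated one, from 2 libraries a group. Crisp1 gave the largest of these, 10.01 ± 1.19 SE (adjusted p = 0.00497): the control log2 fold change was 6.36 and the ligated one -3.65, with 11.4 ± 1.87 CPM in ligated segment 1 and 142.6 ± 20.4 CPM in ligated segment 2 (SD, n = 2). The ligated difference of Crisp1 alone was not called (adjusted p = 0.122).

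For Etv4 the value was 7.37 (adjusted p = 0.0137), for Cftr 3.66 (0.00346), for Ovch2 3.37 (0.00483) and for Ros1 1.38 (0.028). The control log2 fold changes of these 4 genes were 5.79, 4.88, 3.79 and 1.24, and the ligated ones -1.58, 1.22, 0.42 and -0.14. The genes higher in control segment 2 gave negative values: Spink12 -4.14 (adjusted p = 0.0172), Clu -3.13 (0.0386), Ggt1 -2.59 (0.028) and Gpx5 -0.83 (0.0492). Their ligated log2 fold changes were 0.29, -0.37, -0.55 and -0.09, and none of the 9 genes was called between the ligated segments.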

How the results depend on the processing

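The count of 8294 genes called between the control segments was 5046 in a fit of only the 4 libraries compared, between 4749 and 8214 with 1 of them left out, and between 6687 and 8365 in the other settings; it was lowest without the segment 1 library of batch 3017. Without the replicate block it was 6687. The 249 genes called between the ligated segments became 527 with DESeq2, 112 with the stricter filter, 112 without the replicate block, and 0 to 192 with 1 ligated library left out. The 3561 genes whose segment difference differed between control and ligated tissue became 2255 without the replicate block and 1614 to 4655 with 1 library left out; scaled by library totals alone, 34.3% of them were more positive in control tissue, against 44.2%. Library totals shifted the median log2 fold change by -0.037.

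Of 173 called genes named by rule, 121 kept their call in all 4 fits that left out 1 library and 111 in all settings; of the 39 others, 31 kept it in those 4 fits. Calls were lost in 42 and 30 of the 173 without the segment 1 libraries of batches 3017 and 3097, in 5 and 32 without those of segment 2, in 30 on the 4 libraries alone, 24 on the 6 control libraries, 14 with no filter, 10 without the block and 2 with DESeq2. No called gene that is named changed sign. Uncalled genes did. With 1 library left out, Adam7 ranged from -0.4332 to 0.0393, Lck from -0.2683 to 0.0131, Spata3 from -0.2882 to 0.1651, Col1a2 from -0.1013 to 0.1245, Cd3e from -0.2473 to 0.3728, Ly6g5c from -0.0945 to 1.6016 and Cst11 from -0.2801 to 0.97. With library totals Col1a2 was -0.0172 and Cd3e -0.0208, with the stricter filter they were -0.0055 and -0.0122, and without the replicate block Cd3e was -0.0523. Of 92 list counts, 37 and 26 moved by over 1.5 times without the segment 1 libraries of batches 3017 and 3097, 10 and 22 without those of segment 2, 30 on the 4 libraries alone and 10 without the block. The cause of these moves was not tested. With 2 libraries a segment, genes under about 0.1 CPM rest on 3 counts or fewer.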
